A study of Mus musculus with 8 samples.

Results

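The enzymes of the urea cycle and of amino acid breakdown were read as 10 genes, 5 of the urea cycle (Cps1, Otc, Ass1, Asl and Arg1) and 5 of amino acid breakdown (Tat, Tdo2, Gldc, Hgd and Hpd). The genes were listed by name, with no rule on their values, but with earlier results of these data known. Every probe set whose array annotation names 1 of these genes and no other was taken, which gave 12 of the 12422 probe sets tested, for 10 of the 8252 genes named, 6 for each set of genes. Asl and Tdo2 had 2 probe sets each and the other 8 genes 1 each. No probe set naming one of these genes also named another gene.

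Total RNA of mouse liver was hybridised to 8 arrays, 2 in each of 4 groups. All mice, controls included, carried the transgene Ttr::Fv2E-PERK in a low expressing line, on a mixed FvB/n and Swiss Webster background, and were siblings with Atf4+/+ or Atf4-/- genotype. The Ttr promoter is active mainly in hepatocytes, and the transgene encodes the kinase PERK fused to a domain that the drug AP20187 dimerizes, which switches the kinase on. The 4 groups were untreated Atf4+/+, untreated Atf4-/-, AP20187-treated Atf4+/+ and AP20187-treated Atf4-/-; the series title calls the controls mock-injected, and the dose, the time after injection and the age of the mice are not given in the sources used here. Nothing in the labels ties the 2 arrays of a group to different mice, and p-values then measure only the spread between these samples, which may be technical.

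The urea cycle turns ammonia, which the breakdown of amino acids releases, into urea in hepatocytes, above all in those around the portal vein. Its first enzymes lie in mitochondria and the others in the cytosol. The breakdown of tyrosine, tryptophan and glycine in liver is set by dedicated enzymes, several of which are classic targets of glucocorticoids and glucagon. PERK phosphorylates eIF2, which lowers general protein synthesis and raises translation of ATF4, a transcription factor known for inducing genes of amino acid synthesis and transport.

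Each deposited value was a linear ratio of a probe set to its own median over the 8 arrays, so that 1 stands for the usual value of that probe set. The row median was at least 0.99 for all 12 of these probe sets, against 85.8% of the table. Ratios carry no level, so that genes cannot be ranked by abundance and the presence of hepatocyte or other markers cannot be checked from them. The probe set of Atf4 was read as a check of the labels: its ratio was 4.17 and 5.75 in treated Atf4+/+ livers and 0.25 and 0.33 in treated Atf4-/- livers, but 2.36 and 0.30 in the arrays labelled untreated Atf4+/+ and 0.29 and 1.67 in those labelled untreated Atf4-/-. Replicate 2 of both untreated groups thus went against its label, and for replicate 1 labelled untreated Atf4-/- the source name and the description give different genotypes. Untreated genotypes are given below as the source names have them, except that of untreated Atf4+/+ replicate 1, which was taken from its description. Replicate 2 of treated Atf4+/+ stood apart: it held the lowest value of the 8 arrays in 22.7% of 10661 probe sets with a row median of at least 0.99, against 7.64% to 14.2% in the other arrays. Its log2 ratio of the 5' over the 3' probe set was -0.64 for Actb, with -0.19 to 0.14 in the other arrays, and -0.0614 for Gapdh, with -0.0502 to 0.13 in the others.

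In the urea cycle set Cps1 and Arg1 varied least over the arrays. Cps1 (GRCm38.p6 chromosome 1, 67122426 to 67231267), which encodes the mitochondrial enzyme that makes carbamoyl phosphate from ammonia, had ratios of 0.99 and 0.89 in untreated Atf4+/+, 1.14 and 1.03 in untreated Atf4-/-, 0.87 and 0.90 in treated Atf4+/+ and 1.01 and 1.06 in treated Atf4-/- livers. Arg1 (chromosome 10, 24915207 to 24927470), the arginase that releases urea, had 1.03 and 0.88, 1.06 and 1.18, 0.90 and 0.81, and 1.09 and 0.97 in the same order of groups. The highest over the lowest ratio was 1.31 for Cps1 and 1.46 for Arg1, below the median of 2.18 over the probe sets with a row median of at least 0.99.

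Otc and Asl shared a low value in a single array. Otc (chromosome X, 10252230 to 10321024), the mitochondrial enzyme that joins carbamoyl phosphate to ornithine, had ratios of 1.23 and 0.97 in untreated Atf4+/+, 1.19 and 1.14 in untreated Atf4-/-, 1.02 and 0.43 in treated Atf4+/+ and 0.87 and 0.98 in treated Atf4-/- livers. Asl (chromosome 5, 130011258 to 130024381), which splits argininosuccinate into arginine and fumarate, had 1.0 and 1.05, 0.99 and 1.25, 1.0 and 0.41, and 0.93 and 1.05 on its main probe set. In both genes replicate 2 of treated Atf4+/+ was the lowest array, while replicate 1 of that group lay inside the range of the untreated arrays. The second probe set of Asl did not show the low array: it had 0.78 and 1.14, 0.96 and 1.63, 0.75 and 1.04, and 0.83 and 1.05. Ass1 (chromosome 2, 31470270 to 31520670), which makes argininosuccinate and is often called the rate-setting step of arginine synthesis, had 1.14 and 1.82, 0.80 and 0.81, 1.28 and 0.86, and 0.78 and 1.25. Its highest value was in the array labelled untreated Atf4+/+ replicate 2, and the arrays of both treated groups overlapped.

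Among the enzymes of amino acid breakdown Tat alone was higher in all 4 treated arrays than in all 4 untreated ones. Tat (chromosome 8, 109986078 to 109999804), the tyrosine aminotransferase that starts tyrosine breakdown and a textbook glucocorticoid target, had ratios of 0.97 and 0.88 in untreated Atf4+/+, 0.92 and 0.78 in untreated Atf4-/-, 1.03 and 1.13 in treated Atf4+/+ and 1.08 and 1.19 in treated Atf4-/- livers. Hpd (chromosome 5, 123171807 to 123182723), the dioxygenase that follows Tat in the pathway, had 0.89 and 1.18, 0.93 and 0.74, 1.08 and 0.88, and 1.44 and 1.11, with both treated Atf4-/- arrays above both untreated Atf4-/- arrays. Hgd (chromosome 16, 37579742 to 37632026), which opens the ring of homogentisate further down, had 1.03 and 1.20, 0.89 and 1.10, 0.87 and 0.51, and 1.06 and 0.97. In Hgd both treated Atf4+/+ arrays were below all other arrays, by a small margin in replicate 1.

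Gldc and Tdo2 had the widest ranges of the 12 probe sets. Gldc (chromosome 19, 30098441 to 30175441), the decarboxylase of the mitochondrial glycine cleavage system, had ratios of 1.08 and 1.01 in untreated Atf4+/+, 1.31 and 0.99 in untreated Atf4-/-, 0.84 and 0.28 in treated Atf4+/+ and 1.11 and 0.99 in treated Atf4-/- livers. Both treated Atf4+/+ arrays were the lowest, and the highest ratio was 4.68 times the lowest. Tdo2 (chromosome 3, 81958412 to 81975728), the dioxygenase that starts tryptophan breakdown, had 1.08 and 1.78, 0.81 and 0.79, 1.04 and 0.44, and 1.60 and 0.96 on its main probe set. Its second probe set varied less, with 1.0 and 1.14, 0.91 and 1.14, 0.89 and 0.82, and 1.20 and 1.0, with a highest ratio 1.46 times the lowest, against 4.05 times on the main one. Both probe sets placed replicate 2 of treated Atf4+/+ lowest, and in both the treated Atf4+/+ arrays were below the arrays labelled untreated Atf4+/+.

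**Figure D1:**
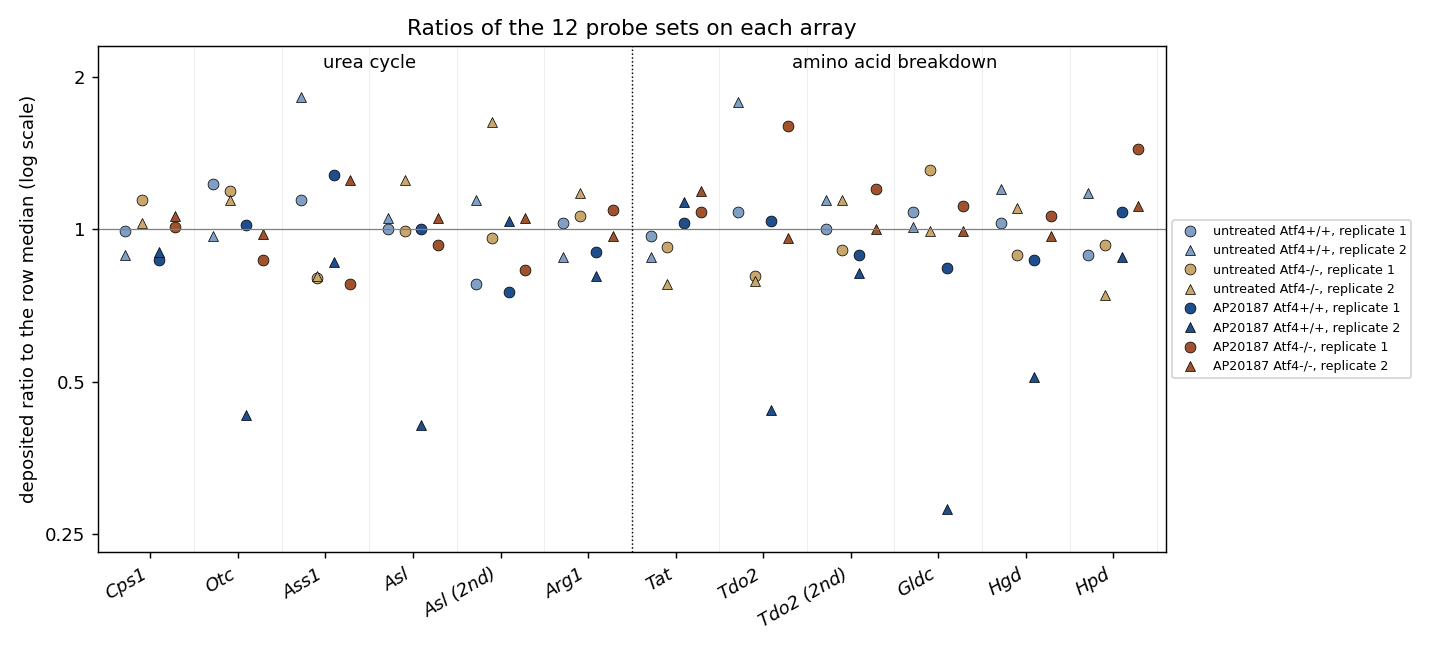
Deposited ratio of each of the 12 probe sets (vertical axis, log scale, 1 is the row median) on the 8 arrays, coloured by group, with circles for replicate 1 and triangles for replicate 2. The dark blue triangles, treated Atf4+/+ replicate 2, lie between 0.28 and 0.51 on the main probe sets of Otc, Asl, Tdo2, Gldc and Hgd, apart from all other arrays. The second probe sets of Asl (1.04) and Tdo2 (0.82) do not show this, and Cps1 stays between 0.87 and 1.14.

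The bases before the transcription start of Tdo2, Gldc and Hpd are shown because the first 2 genes had the widest ranges and Hpd did not share their low array. They are the 250 bases upstream of the RefSeq start on GRCm38.p6, read on the gene's strand, with matches to the searched motifs in capitals. Tdo2 lies at chr3:81975729-81975978 on the minus strand, Gldc at chr19:30175442-30175691 on the minus strand and Hpd at chr5:123182724-123182973 on the minus strand.
Tdo2: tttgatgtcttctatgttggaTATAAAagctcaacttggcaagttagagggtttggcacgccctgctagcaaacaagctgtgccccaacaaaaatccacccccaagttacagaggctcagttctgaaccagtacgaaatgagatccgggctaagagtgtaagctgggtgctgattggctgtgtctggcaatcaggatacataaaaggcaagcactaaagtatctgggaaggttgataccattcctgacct
Gldc: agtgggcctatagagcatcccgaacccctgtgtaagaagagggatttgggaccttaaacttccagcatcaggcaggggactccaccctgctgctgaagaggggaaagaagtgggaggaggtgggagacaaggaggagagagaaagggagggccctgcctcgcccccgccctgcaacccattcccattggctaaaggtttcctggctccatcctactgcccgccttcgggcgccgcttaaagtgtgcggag
Hpd: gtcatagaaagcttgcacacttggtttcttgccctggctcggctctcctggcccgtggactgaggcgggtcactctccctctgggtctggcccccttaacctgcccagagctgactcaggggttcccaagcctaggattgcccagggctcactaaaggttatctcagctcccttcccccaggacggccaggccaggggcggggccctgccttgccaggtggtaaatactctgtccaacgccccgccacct
The motifs were TGACGTCA (the cAMP response element), TGATGNAA (an ATF4 element shared with C/EBP), TTGCNNAA (a C/EBP site) and TATAAA, searched on both strands, and no match of one overlapped a match of another in these genes. RefSeq promoters were matched for 7 of the 10 genes (Ass1, Gldc, Hgd, Hpd, Otc, Tat and Tdo2), 1 promoter each. In these 7 windows TGACGTCA and TGATGNAA matched 0 times, against 1.55% and 3.45% of all 32851 promoters in the table. TTGCNNAA matched in Hgd, 49 bases before its start, and in 9.56% of all promoters. TATAAA matched in Tdo2, 229 bases before the start, in Hgd, 139 bases before it, and in 12.4% of all promoters. The windows of Hgd, Otc and Tat reach into the annotated span of their genes and are not printed.

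The first comparison asked what AP20187 changed in Atf4+/+ livers. Most of these genes had lower values with the drug, but none passed the test, and most of the size came from 1 array. Fits were made with limma on log2(ratio + 0.1) over all probe sets, on which scale changes are given, and a call needs a Benjamini-Hochberg adjusted p under 0.05. The log2 change was -0.94 ± 0.43 for Gldc, -0.92 ± 0.45 for Tdo2 (-0.29 ± 0.22 on its second probe set), -0.66 ± 0.28 for Hgd, -0.63 ± 0.37 for Otc and -0.59 ± 0.38 for Asl (SE, 2 against 2 arrays). Adjusted p-values of the 12 probe sets ran from 0.567 to 0.953. Ass1 stood at -0.42 ± 0.34 and Tat, the single probe set of the 12 above 0, at 0.20 ± 0.21. The other 11 of 12 lay below 0, beside 54.9% of all probe sets. By limma 0 of 12 passed, where 0.00805% of all probe sets did, and 0 of 12 had an unadjusted p under 0.05, where 9.1% of all did. Both treated arrays were below both untreated arrays for 4 of 12 probe sets (both of Tdo2, Gldc and Hgd; 21.3% of all probe sets) and above them for 1 of 12 (Tat; 16.7% of all).

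The median log2 change in Atf4+/+ livers was -0.42 over the 5 urea cycle genes and -0.66 over the 5 breakdown genes, with 1 probe set a gene, beside -0.06 over all probe sets. Leaving out treated replicate 2 moved these medians to -0.09 and -0.28, and leaving out treated replicate 1 moved them to -0.68 and -0.99. Without treated replicate 2 the change was -0.28 for Gldc, -0.39 for Tdo2, -0.32 for Hgd, -0.09 for Otc and -0.03 for Asl. The urea cycle median was -0.24 when the doubted untreated Atf4+/+ array, replicate 2, was left out.

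The same comparison in Atf4-/- livers showed no common direction. Hpd had a log2 change of 0.55 ± 0.26, Tat of 0.38 ± 0.21, Tdo2 of 0.58 ± 0.45 and Otc of -0.31 ± 0.37 (SE, 2 against 2 arrays), with limma adjusted p from 0.698 to 0.989 over the 12 probe sets. The second probe set of Tdo2 stood at 0.10 with overlapping arrays, and its main one at 0.24 without treated Atf4-/- replicate 1 and 0.92 without replicate 2. Of the 12, 6 lay above 0 and 6 below, where 51.9% of all probe sets lay below. By limma 0 of 12 passed, as did 0% of all probe sets, and 0 of 12 had an unadjusted p under 0.05, where 7.42% of all did. Both treated arrays were above both untreated ones for 3 of 12 (Tat, Tdo2 and Hpd; 20.1% of all probe sets) and below them for 1 of 12 (Otc; 22.3% of all). The median was -0.11 for the urea cycle genes and 0.38 for the breakdown genes, with -0.02 over all probe sets.

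**Figure D2:**
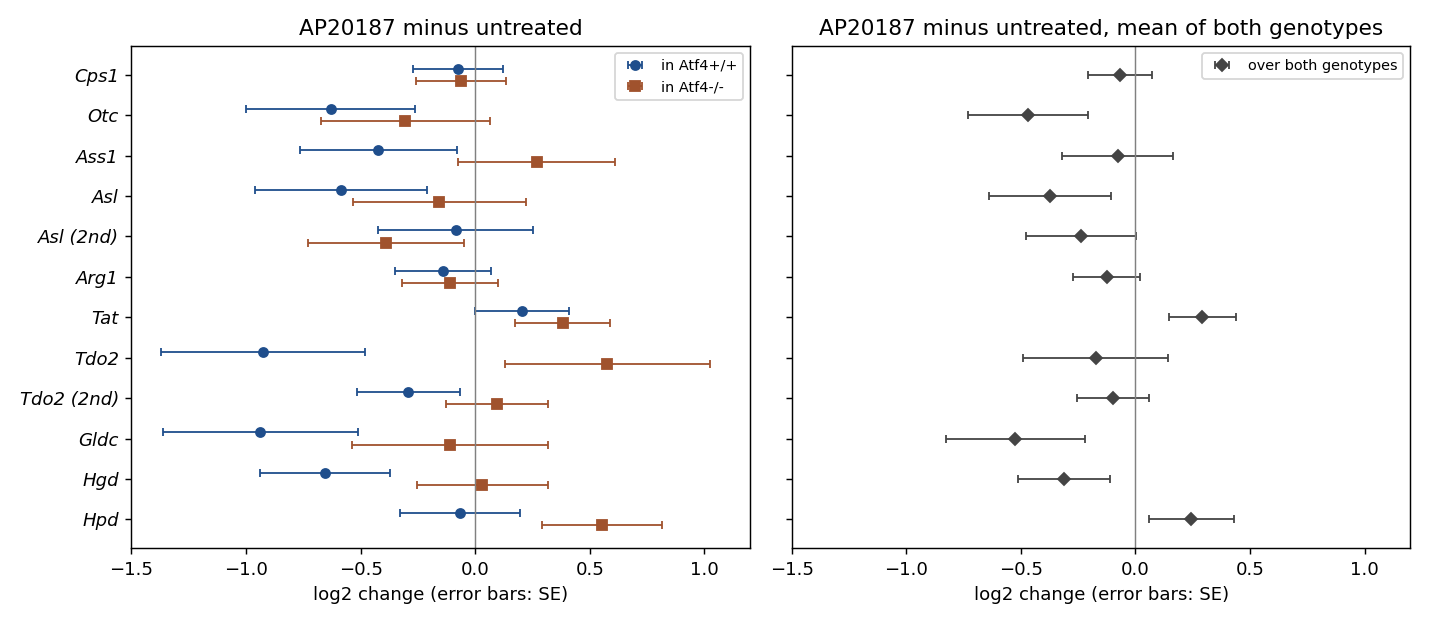
Log2 change with AP20187 for each probe set (horizontal axis, error bars are SE), in Atf4+/+ (circles) and Atf4-/- (squares) on the left and as the mean of both genotypes (diamonds) on the right. Gldc, Tdo2 and Hgd have the lowest values in Atf4+/+ (-0.94, -0.92 and -0.66), Cps1 and Arg1 lie near 0 in both genotypes, and Tat lies above 0 in both.

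The difference between the AP20187 effects, Atf4-/- minus Atf4+/+, was tested directly. It was 1.50 ± 0.63 for Tdo2, 0.83 ± 0.60 for Gldc, 0.69 ± 0.49 for Ass1, 0.69 ± 0.40 for Hgd and 0.62 ± 0.37 for Hpd (SE), the largest of the 12. Their limma adjusted p lay between 0.914 and 0.944. Cps1 and Arg1 stood at 0.02 and 0.03 and the second probe set of Asl at -0.30. Of the 12, 11 lay above 0, beside 6628 of all 12422 probe sets. For Tdo2, by the labels as given, both treated arrays were below both untreated arrays in Atf4+/+ and above them in Atf4-/-. Its second probe set kept that order in Atf4+/+ but not in Atf4-/-. With replicate 2 of both untreated groups placed by its Atf4 ratio, the main probe set would overlap in both genotypes. Untreated 1.08 and 0.79 would then stand against treated 1.04 and 0.44 in Atf4+/+. In Atf4-/- untreated 0.81 and 1.78 would stand against treated 1.60 and 0.96. Among all probe sets 21.3% had the order seen in Atf4+/+ and 20.1% that seen in Atf4-/-. The share with both was not counted. By limma 0 of 12 passed, beside 0% of all probe sets, and 0 of 12 had an unadjusted p under 0.05, beside 5.46% of all. The 95% interval of the difference for Tdo2 ran from -0.02 to 3.02. The value was 0.96 without treated Atf4+/+ replicate 2 and 1.15 without both doubted untreated arrays, and on the second probe set it was 0.39 ± 0.32 with all arrays. Without treated Atf4+/+ replicate 2 the difference was 0.17 for Gldc, 0.35 for Hgd and 0.43 for Ass1. Without both doubted untreated arrays it was 0.38 for Ass1 and 0.29 for Hpd. Without treated Atf4-/- replicate 2 it was 0.38 for Ass1.

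Under AP20187 the genotypes could be compared on 4 arrays whose Atf4 level went with their labels, which asks what Atf4 changes while PERK is active. Values were higher in Atf4-/- than in Atf4+/+ for 11 of 12 probe sets, beside 6809 of all 12422. Of the 12, 6 had both Atf4-/- arrays above both Atf4+/+ arrays (Cps1, Arg1, the second probe set of Tdo2, Gldc, Hgd and Hpd), where 19.2% of all probe sets did. The opposite order was found for 0 of 12 and for 15.3% of all. The log2 difference was 0.94 ± 0.43 for Gldc, 0.77 ± 0.45 for Tdo2 (0.33 ± 0.22 on its second probe set), 0.54 ± 0.38 for Asl, 0.53 ± 0.28 for Hgd, 0.34 ± 0.26 for Hpd, 0.24 ± 0.21 for Arg1 and 0.20 ± 0.20 for Cps1 (SE, 2 against 2 arrays). None of these differences passed the test: limma adjusted p ran from 0.952 to 0.992, 0 of 12 passed (0% of all probe sets), and 0 of 12 had an unadjusted p under 0.05 (5.31% of all). The median was 0.24 for the urea cycle genes and 0.53 for the breakdown genes, with 0.04 over all probe sets.

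Treated Atf4+/+ replicate 2 carried most of that size. Without it the medians were -0.02 and 0.21, and Gldc stood at 0.29, Tdo2 at 0.24, Hgd at 0.20 and Asl at -0.02. Cps1, Arg1, the second probe set of Tdo2 and Hpd moved less, to 0.23, 0.17, 0.27 and 0.21. Without AP20187, by the doubted labels, Cps1 and Arg1 differed by a like amount (0.19 ± 0.20 and 0.21 ± 0.21, SE). By the same labels their differences of the AP20187 effects were 0.02 and 0.03. With replicate 2 of both untreated groups placed by its Atf4 ratio, the untreated arrays of Cps1 and of Arg1 would overlap between genotypes. Without treated Atf4+/+ replicate 1 the breakdown median was 0.87.

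**Figure D3:**
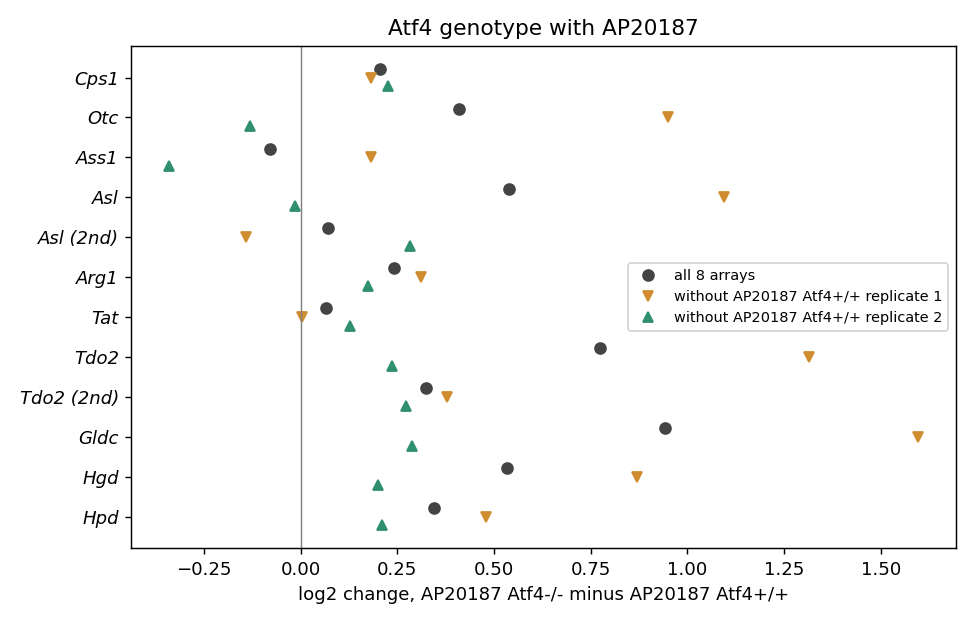
Log2 difference between treated Atf4-/- and treated Atf4+/+ livers (horizontal axis) for each probe set with all 8 arrays (circles), without treated Atf4+/+ replicate 1 (downward triangles) and without treated Atf4+/+ replicate 2 (upward triangles). Gldc goes from 0.94 to 1.60 or 0.29 and Asl from 0.54 to 1.09 or -0.02, while Cps1 stays between 0.18 and 0.23.

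Without AP20187 the genotypes, as labelled, differed most in Ass1 (-0.77 ± 0.34) and Tdo2 (-0.73 ± 0.45, SE, 2 against 2 arrays), both lower in the arrays labelled Atf4-/-. The second probe set of Tdo2 stood at -0.06 with overlapping arrays, and its main one at -0.39 without the array labelled untreated Atf4+/+ replicate 2. Ass1 had 0.80 and 0.81 there against 1.14 and 1.82, and its value was -0.45 without the array labelled untreated Atf4+/+ replicate 2. By these labels its arrays did not overlap, nor did those of the main probe set of Tdo2 (lower) and of Cps1 and Arg1 (higher). With replicate 2 of both untreated groups placed by its Atf4 ratio, each of these would overlap. For Ass1 that would set 0.80 and 1.82 in Atf4-/- against 1.14 and 0.81 in Atf4+/+. The share of all probe sets without overlap was not counted in this comparison. By limma 0 of 12 passed, as did 0% of all probe sets, with adjusted p from 0.929 to 0.999, and 0 of 12 had an unadjusted p under 0.05, where 5.32% of all did. The labels of these 4 arrays are the doubted ones.

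The effect of AP20187 was also taken as the mean over both genotypes. Tat was higher in 4 of 4 treated arrays than in any untreated array, with a log2 change of 0.29 ± 0.15 (SE, 4 against 4 arrays, 95% interval -0.06 to 0.64, limma adjusted p = 0.514). The exact permutation test of its 4 treated against 4 untreated arrays, two-sided, gave p = 0.0286, the smallest that 70 splits allow. That test was run on each of the 12 probe sets with no adjustment, and Tat was the 1 of the 12 under 0.05. It was also run on the other pathway genes and regulators listed below. There Aldh7a1 of lysine breakdown (treated lower) and Cebpb (treated higher) reached the same smallest p. Treated arrays lay wholly above untreated ones in 4.19% of all probe sets and in 1 of these 12, and wholly below in 3.78% of all and in 0 of 12. A share of 1 in 12 is not set apart from that background.

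Otc had a change of -0.47 ± 0.26 over both genotypes, Gldc of -0.52 ± 0.30, Hgd of -0.31 ± 0.20, Asl of -0.37 ± 0.27 and Hpd of 0.24 ± 0.18 (SE, limma adjusted p from 0.544 to 0.644). Without treated Atf4+/+ replicate 2 these were -0.20, -0.20, -0.14, -0.09 and 0.31. Cps1 stood at -0.07 ± 0.14 (95% interval -0.40 to 0.27) and Arg1 at -0.13 ± 0.15 (-0.48 to 0.23). By limma 0 of 12 passed over both genotypes, where 0.0403% of all probe sets did, and 0 of 12 had an unadjusted p under 0.05, where 11.3% of all did.

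Other genes of these pathways were read from a list of 74, of which 43 had a probe set of their own. By limma 0 of 43 passed in any of the 6 comparisons. With the mean over both genotypes 34 of 43 had values below 0 (median -0.16), beside 55.0% of all probe sets. The 4 smallest p-values, counting regulators too, belonged to Got1, the cytosolic aspartate aminotransferase (-1.12 ± 0.35), Cebpb, a transcription factor of acute liver responses (0.87 ± 0.28), Sardh, which oxidises sarcosine (-0.61 ± 0.24), and Ivd of leucine breakdown (-0.42 ± 0.19; SE, limma adjusted p from 0.368 to 0.474). The row median of Got1 was 0.56, so that its ratios are not to its own median. Got1 and Sardh were the 2 of 43 with an unadjusted p under 0.05, where 11.3% of all probe sets had one. In Atf4+/+ livers 37 of 43 lay below 0, beside 54.9% of all probe sets (median -0.24, and -0.06 without treated replicate 2). An unadjusted p under 0.05 was met there by 2 of 43, beside 9.1% of all probe sets. They were Asns, which makes asparagine and is a textbook ATF4 target (0.97 ± 0.33), and Aadat, an aminotransferase of lysine and kynurenine (-0.60 ± 0.24). In Atf4-/- livers 29 of 43 lay below 0, beside 51.9% of all (median -0.11). Got1 (-1.64 ± 0.50) was the 1 of 43 with an unadjusted p under 0.05 there, beside 7.42% of all probe sets.

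In the genotype comparison with AP20187 32 of 43 lay above 0, beside 6809 of all 12422 probe sets (median 0.18, and -0.05 without treated Atf4+/+ replicate 2). The smallest p-values there belonged to Aadat (0.63 ± 0.24), Glud1, the glutamate dehydrogenase that frees ammonia (0.49 ± 0.22), the hepatocyte regulator Hnf4a (0.44 ± 0.20) and Agxt, which handles glyoxylate with alanine or serine (0.56 ± 0.26; SE, limma adjusted p from 0.906 to 0.952). By list, AP20187 in Atf4+/+ livers gave values below 0 for 6 of 8 neighbours of the urea cycle, 4 of 4 genes of phenylalanine and tyrosine, 8 of 8 of glycine and serine, 6 of 6 of methionine and cysteine and 11 of 15 of branched chain, lysine and proline breakdown, beside 54.9% of all probe sets. Without treated replicate 2 the median of the branched chain, lysine and proline list turned from -0.12 to 0.26, and that of the phenylalanine and tyrosine list went from -0.26 to -0.003. In Atf4-/- livers the same lists gave 3 of 8, 4 of 4, 5 of 8, 5 of 6 and 11 of 15, beside 51.9% of all. Of the tryptophan and histidine lists 1 gene each was measured (Aadat and Hal). Of 10 hormone and transcription regulators 0 passed the test, and Cebpb had the 1 unadjusted p under 0.05 over both genotypes, beside 11.3% of all probe sets.

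The single low array ran through the pathway lists as well. Replicate 2 of treated Atf4+/+ held the lowest ratio for 7 of the 12 member probe sets and for 27 of 42 other pathway genes with a row median of at least 0.99, beside 22.7% of all such probe sets. At a ratio of 0.6 or lower, a limit chosen after the values were seen, were 5 of 12 member probe sets there and 0 of 12 in each of the other 7 arrays, with 11.8% of all probe sets there and 5.94% to 8.81% in the others. The median ratio in that array was 0.82 over the 12 member probe sets and 0.77 over the 42 pathway genes, and 0.95 to 1.10 and 0.98 to 1.11 in the other arrays. Among those low there were Hal, the histidine ammonia-lyase (0.46), Qdpr and Pcbd1, which recycle the cofactor of phenylalanine hydroxylation (0.54 and 0.56), Pccb of propionate metabolism (0.42) and Bhmt2 of methionine synthesis (0.50), chosen after their values were seen.

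**Figure D4:**
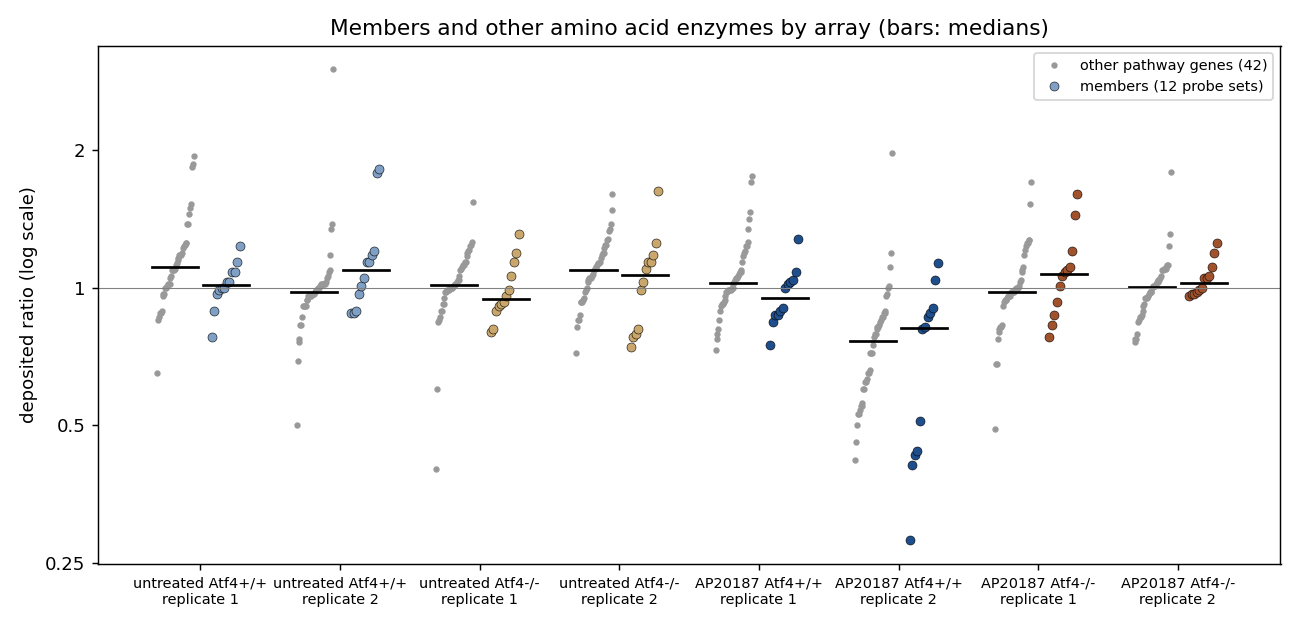
Ratios of 42 other pathway genes (grey) and of the 12 member probe sets (coloured by group) on each array, log scale, with black bars for medians. Both medians are lowest in treated Atf4+/+ replicate 2 (0.77 and 0.82), where 5 of the 12 member probe sets lie at 0.28 to 0.51.

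Markers moved with that array in part. Of 7 listed markers of hepatocytes around the portal vein, with the members left out, 3 were measured. These were Hal, Pck1 and Cyp2f2, all lowest there (0.46, 0.57 and 0.49), with a list median of 0.49. In the other arrays that median was 0.82 to 1.16. Of the urea cycle members Otc, Arg1 and Asl on its main probe set were lowest there too. Cps1 (0.90) and Ass1 (0.86) were not. The median of 6 markers of hepatocytes around the central vein was 0.91 there and 0.84 to 1.18 in the others, but Cyp1a2 (0.41) and Oat (0.72) were each lowest in that array. Of 6 general hepatocyte markers Ttr (0.47) and Apob (0.29) were lowest in it and Alb (0.98), Ahsg (0.97), Apoa1 (0.87) and Fgb (1.03) were not, and the list median was 0.92, with 0.88 to 1.23 in the other arrays. Ttr, whose promoter drives the transgene, was lower in all 4 treated arrays (0.83, 0.47, 0.98 and 0.93) than in the untreated ones (1.02 to 1.43). That order was found in 3.78% of all probe sets, and it was picked out among the markers with the values in view. Medians of 8 macrophage, 5 endothelial, 6 stellate and fibroblast, 3 bile duct, 5 lymphocyte and 3 erythroid markers in that array were 1.02, 0.81, 0.88, 0.65, 1.06 and 0.98, each within or at the edge of the range of the others except that of endothelium, the lowest of its 8 values. Of 4 pancreas and kidney markers the median was 0.52, with 0.53 to 1.16 elsewhere. The part of other cell types, of RNA quality and of this array in the results was not tested, and in bulk liver fewer cells of a type and less RNA per cell cannot be told apart.

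The genes outside the set whose profile over the 8 arrays was most like the mean of the 5 urea cycle genes were Fkbp2, Ndufv3, Efl1, Pcbd1 and Ergic3 (Pearson's r from 0.974 to 0.983). For the mean of the 5 breakdown genes they were Dok1, Ap2b1, Clgn, Psma4 and Hint1 (r from 0.963 to 0.991). All 10 were lowest in treated Atf4+/+ replicate 2, at ratios from 0.26 to 0.84, so that the likeness over arrays that share this extreme is a description only.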

How the data were processed

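Total RNA of mouse liver was labelled with biotin and hybridised to 8 oligonucleotide arrays, per the labels. The deposited table holds linear ratios made by the authors, for most probe sets to the row's own median over the 8 arrays; how signals were summarised and scaled was not given in the sources used. Signal over background is unknown and precision is limited by having 8 arrays. Of 12488 probe sets 66 controls were left out, and 10833 named 1 gene in the platform annotation, which can be old, of which 10817 were matched by gene identifier to RefSeq (GRCm38.p6).

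Values were taken as log2(ratio + 0.1). With limma 3.58.1 (R 4.3.3) 4 group means were fitted to all 8 arrays, and 6 contrasts were moderated by eBayes (4 residual and 2.37 prior degrees of freedom), with Benjamini-Hochberg adjustment over 12422 probe sets. The fit was tested on simulated data. The members and lists were chosen with earlier results of these data known. Genes named are the members with every probe set, Atf4, the pathway genes with the smallest p (4 each in 2 comparisons) and the 5 most alike profiles; any other gene named, the listed cell markers aside, was picked with its values in view. Where a gene had several probe sets, the order of choice was a median of 0.99 or more, a name without letter suffix and the smallest SD within groups. Alternatives were pseudocounts of 0.05 and 0.25, centring, quantile normalization, a filter on the row median, robust moderation, another grouping of the array with conflicting labels, leaving out both doubted arrays and leaving out each array. Figures were drawn with matplotlib 3.10.9 (Python 3.11.15).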

Additional observations from a re-analysis of the deposited data

Results flagged for a closer look

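On its main probe set Asl was set apart because 1 of the 4 treated arrays stood far from the others: the gap of treated Atf4+/+ replicate 2 (0.41) to the next array was 0.864 of the whole range on the log2 scale, above Dixon's critical value for 4 samples. Its second probe set, with 1.04 in that array, gave 0.298. The test was run on 24 groups of 4 arrays, of which chance sets apart about 1 in 20, and the treated values of Otc and Gldc came to 0.808 and 0.782 with the same array lowest.

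On its main probe set Tdo2 was set apart because AP20187 went with lower values in both Atf4+/+ arrays and higher values in both Atf4-/- arrays than in the untreated arrays of the same label. With both doubted untreated arrays placed by their Atf4 ratio, treated and untreated arrays would overlap in both genotypes. The difference of the effects was 1.50 on the log2 scale (limma adjusted p = 0.914), and 0.39 on the second probe set. Among all probe sets 21.3% were lower in this way in Atf4+/+ and 20.1% higher in Atf4-/-. The share with both was not counted.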

How the results depend on the processing

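None of the 12 member probe sets and none of the 43 other pathway genes passed the limma test in any of the 6 comparisons under any alternative that kept the adjusted p, leaving out each array included. The lowest adjusted p of a member under an alternative was 0.171 in Atf4+/+, 0.569 in Atf4-/-, 0.478 for the difference of effects, 0.346 and 0.842 for genotype with and without AP20187, and 0.183 over both genotypes. An unadjusted p under 0.05 was met by 2, 1, 0, 1, 0 and 2 of the 43 other pathway genes in the same order. Among all probe sets the shares were 9.1%, 7.42%, 5.46%, 5.31%, 5.32% and 11.3%. Tat over both genotypes stood at 0.29, and at 0.24 to 0.35 without single arrays. The exact permutation test (p = 0.0286) gives no estimate of its own, and its splits ignored genotype. In the genotype comparison with AP20187 Asl was -0.015 to 1.09 without single arrays. There Otc went from 0.41 to -0.13 without treated Atf4+/+ replicate 2, and without replicate 1 Ass1 went from -0.08 to 0.18 and the second probe set of Asl from 0.07 to -0.14. In Atf4+/+ that second probe set went from -0.09 to 0.13 without treated replicate 1 and Hpd from -0.07 to 0.07 without replicate 2. Over both genotypes Tdo2 went from -0.17 to 0.10 and Ass1 from -0.08 to 0.05 without treated Atf4+/+ replicate 2.

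The urea cycle median in Atf4+/+ was -0.19 with the conflicting array grouped by its description, -0.24 without both doubted arrays, -0.28 over all 6 probe sets and -0.68 to -0.091 without single arrays. The Atf4 ratio of the conflicting array, 0.29, went with its source name and not with its description. No fit was made with the genotypes of both doubted arrays exchanged. Its difference of effects was 0.18 over all 6 probe sets and -0.037 to 0.87 without single arrays, its genotype difference with AP20187 -0.015 to 0.32, and that without AP20187 0.11 to 0.24, and -0.013 without both doubted arrays. The breakdown median was -0.99 to -0.28 in Atf4+/+, 0.35 to 1.02 for the difference of effects and 0.21 to 0.87 for genotype with AP20187 without single arrays, and over both genotypes it was -0.17 and turned to 0.10 without treated Atf4+/+ replicate 2. The lowest or highest of these values mostly came from leaving out a treated Atf4+/+ array, and the cause was not tested. No paired analysis was possible because the labels give no replicate numbers. When a group is left with 1 array, that array is assumed to vary like the other groups.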
